A study of Homo sapiens with 7 samples.

Results

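The loops of promoters of long noncoding RNAs (lncRNAs) were described in 3 lists of chromatin contacts, one for each of the human cancer cell lines Ishikawa, T-47D and LNCaP. The contacts were measured by H3K27ac HiChIP, which ligates DNA ends that lie close together in the nucleus and then enriches fragments on nucleosomes acetylated at lysine 27 of histone H3, a mark of active promoters and enhancers. A loop is a pair of different anchors on one chromosome, an anchor is an interval that can be joined to others, and the value of a loop is the number of read pairs that join its anchors. An lncRNA promoter loop had at least 1 anchor that overlapped a 500 bp window centred on an lncRNA start site and no such window of a protein-coding gene (GENCODE lifted to GRCh37, 18702 lncRNA genes and 20163 protein-coding genes). Such loops numbered 15524 of 163530 in Ishikawa, 4223 of 42027 in T-47D and 12660 of 149226 in LNCaP, which is 32407 of 354783 loops over the 3 lists.

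Ishikawa is a line of endometrial adenocarcinoma cells, and its 4 samples were 2 treated with the vehicle DMSO and 2 treated with 10 nM 17β-estradiol (E2) for 1 h. T-47D is a line of breast carcinoma cells (1 sample) and LNCaP a line of prostate carcinoma cells (2 samples), and the labels give no treatment for either. Each list pools the samples of its line, so no value has a replicate error, DMSO and E2 were not compared, and the intervals given are 95% intervals that cover counting error only. Read pairs are not independent molecules. The enzyme, sonication, read length and depth of the Ishikawa libraries differed from those of the other lines and cannot be told apart from the cell line. The lists held 1040329, 351260 and 1805322 read pairs in loops for Ishikawa, T-47D and LNCaP. As a check of the labels, loops over the promoter of KLK3, the androgen-regulated gene of prostate-specific antigen, held 6, 0 and 2936 read pairs in that order. Loops over GATA3, a transcription factor of the luminal breast lineage, held 7, 1063 and 0, and loops over PAX8, a transcription factor of the Müllerian lineage, held 162, 0 and 0, so each marker was highest in the list of its own line.

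lncRNAs are transcripts that are not translated into protein, and most are made by RNA polymerase II from promoters like those of coding genes. Some act in the nucleus on chromatin or on nuclear bodies, some are hosts from which microRNAs or small nucleolar RNAs are cut, and for many no function is known. An acetylated lncRNA start site can also be an enhancer of a nearby gene, and a contact map does not separate a promoter from an enhancer at the same place.

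Start sites of 3 lncRNAs are printed because the results below turn on them, MALAT1 with loops in all 3 lists, ARLNC1 with its most read pairs in LNCaP, and LINC02395 with loops in Ishikawa alone. Each runs 5′ to 3′ on the strand of the gene over 300 bases of GRCh37, from 250 bases before the start site to 50 from it. For MALAT1 the start site is the 5′ end of the gene, and for ARLNC1 and LINC02395 it is the most upstream annotated start within the looped anchor, which lies inside the gene. Capitals mark matches on either strand to any of 8 motifs, the GC box (GGGCGG), the TATA box (TATAAA), the CCAAT box, the ETS core (CCGGAA), the AP-1 site (TGANTCA), the forkhead site (TGTTTAC), the GATA site (AGATAA) and the estrogen response element, in which GGTCA is followed after a gap of 3 bases by TGACC.
MALAT1, chr11:65264861-65265160, plus strand: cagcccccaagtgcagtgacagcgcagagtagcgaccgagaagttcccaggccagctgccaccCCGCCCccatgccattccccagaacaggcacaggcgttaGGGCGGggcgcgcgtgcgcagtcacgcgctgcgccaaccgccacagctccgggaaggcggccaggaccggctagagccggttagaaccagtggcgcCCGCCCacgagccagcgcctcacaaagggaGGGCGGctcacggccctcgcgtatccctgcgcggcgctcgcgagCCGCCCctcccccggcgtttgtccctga
ARLNC1, chr16:80908933-80909232, minus strand: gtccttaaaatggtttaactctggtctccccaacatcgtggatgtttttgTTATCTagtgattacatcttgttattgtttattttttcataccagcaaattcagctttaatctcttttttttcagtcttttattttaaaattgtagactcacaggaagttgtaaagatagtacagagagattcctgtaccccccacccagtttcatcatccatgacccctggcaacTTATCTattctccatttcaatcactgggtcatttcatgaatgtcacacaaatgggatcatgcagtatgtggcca
LINC02395, chr12:50317469-50317768, plus strand: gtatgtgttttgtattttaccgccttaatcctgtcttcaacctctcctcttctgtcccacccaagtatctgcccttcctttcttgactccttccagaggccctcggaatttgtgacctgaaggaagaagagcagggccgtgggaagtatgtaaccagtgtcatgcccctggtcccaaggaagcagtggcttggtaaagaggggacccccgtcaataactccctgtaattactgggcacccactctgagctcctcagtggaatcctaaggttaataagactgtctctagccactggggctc
The MALAT1 window was 71.7% G or C and held 5 GC boxes and 34 CpG dinucleotides. The ARLNC1 window was 37.0% G or C and held 2 GATA matches and 1 CpG. The LINC02395 window held no match. A match is a stretch of letters, and no factor binding was measured here.

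lncRNA promoters took a similar share of loops in the 3 cell lines. The share was 9.49% (95% Wilson interval 9.35 to 9.64) in Ishikawa cells, 10.0% (9.76 to 10.3) in T-47D cells and 8.48% (8.34 to 8.63) in LNCaP cells. By read pairs it was 10.5%, 10.6% and 10.2%. The anchors behind these loops were few, 3812 of 92121 in Ishikawa (4.14%), 929 of 19386 in T-47D (4.79%) and 1700 of 43549 in LNCaP (3.90%). Anchors over protein-coding promoters were 16.6%, 49.1% and 29.4% of anchors in the same order, so the makeup of the lists differed far more at coding promoters than at lncRNA promoters. Several lncRNA genes shared an anchor at 278, 136 and 201 anchors, and where they did, the read pairs below belong to all of them. The median lncRNA anchor was 5.55 kb wide in Ishikawa cells, 2.69 kb in T-47D cells and 3.50 kb in LNCaP cells, and a wider anchor takes in more start sites.

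The annotated lncRNA genes were mostly outside the loops. Of 18702 lncRNA genes, 3710 (19.8%) had a loop from an anchor of their own in Ishikawa cells, 1036 (5.54%) in T-47D cells and 1791 (9.58%) in LNCaP cells. A further 2474, 2282 and 2795 genes lay only in anchors that also held a protein-coding promoter and are counted at 0 read pairs by the definition used here. The remaining 12518, 15384 and 14116 had no start site in a looped anchor. By comparison, 57.3%, 49.2% and 58.1% of protein-coding genes had a looped promoter. Of the lncRNA genes with a loop, 3963 (77.7%) had it in 1 list, 834 in 2 lists and 302 (5.92%) in all 3 lists, against 27.1% of protein-coding genes in 1 list and 44.1% in all 3. The 2 classes are not counted alike. An lncRNA gene is at 0 in a list where its anchors all take in a coding start site, while a coding gene is never removed in this way. SNHG5, for example, had loops in Ishikawa and lay only in anchors with a coding promoter in T-47D and LNCaP. The Ishikawa list held the most anchors, and the part of this definition, of depth and of anchor calling in these counts was not tested.

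The start sites with loops differed in base composition between the lists. CpG-rich windows, defined as 500 bp around the gene's 5′ end with 50% G or C or more and an observed to expected CpG ratio of 0.6 or more, made up 43.7% (40.47 to 46.96) of the 895 lncRNA genes whose 5′ end lay in a looped lncRNA anchor in T-47D, 29.5% (27.3 to 31.9) of 1507 in LNCaP and 12.3% (11.2 to 13.5) of 3059 in Ishikawa. The intervals of the 3 lists did not overlap. The median width of lncRNA anchors ran the other way, at 2.69 kb in T-47D, 3.50 kb in LNCaP and 5.55 kb in Ishikawa. Anchors that also take in a coding start site are left out, and the part of anchor width in these shares and in the motif shares below was not tested. The share was 9.89% among the 10612 lncRNA genes with a window sequence in no looped anchor, 60.5% among the 3719 found only in anchors with a protein-coding promoter and 59.0% over all protein-coding genes.

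The GC-rich motifs followed the same order. A GC box, the site of the SP family of factors, was in 51.8% of the T-47D windows, 38.5% of the LNCaP windows and 21.3% of the Ishikawa windows, against 28.4% of all lncRNA windows and 62.4% of all protein-coding windows. The ETS core was in 23.5%, 18.2% and 10.6%, against 13.6% of all lncRNA windows. The TATA and GATA motifs ran the other way. A TATA box was in 14.5% of the T-47D windows, 19.9% in LNCaP and 26.4% in Ishikawa, against 23.9% of all lncRNA windows. A GATA match was in 16.5%, 20.6% and 23.5%, against 21.9%. The windows of genes in no looped anchor held these motifs in 27.8% and 24.8%, so the Ishikawa values lay close to those of genes without loops. The forkhead motif, which FOXA1 binds, was in 8.38%, 8.29% and 7.65%, against 6.61% of all lncRNA windows, and these 3 intervals overlapped. The AP-1 motif was in 13.0%, 15.9% and 16.8%, against 15.3% of all lncRNA windows, and CCAAT in 45.1%, 50.6% and 50.7%, against 49.4%. A full estrogen response element was found in 1 window in T-47D, 2 in LNCaP and 2 in Ishikawa, and in 17 of all 18686 lncRNA windows. The motifs were searched on both strands, and GC box and CpG content are not separate measurements.

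Looped lncRNA start sites lay mostly outside protein-coding genes. Of the genes counted in any list, 71.9% of 4355 started outside every protein-coding gene, 19.7% inside one on the opposite strand and 8.34% inside one on the same strand. Among the 10628 lncRNA genes in no looped anchor these shares were 64.5%, 26.0% and 9.53%. Genes found only in anchors with a coding promoter, which the definition leaves out of the looped set, started outside coding genes in 36.6%. The median distance from the 5′ end to the nearest protein-coding start site was 32.7 kb in Ishikawa cells, 24.4 kb in T-47D cells and 26.3 kb in LNCaP cells. It was 32.0 kb for lncRNA genes in no looped anchor and 0.251 kb for those found only in anchors with a coding promoter. That last value and the 36.6% are partly set by the definition, which removes every anchor over a coding start site. The 71.9% and the distances of the looped genes are partly set by it as well. Genes in no looped anchor passed through no such removal, so their 64.5% and 32.0 kb are not on the same footing.

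lncRNA promoter loops had the longer median span in LNCaP, also when both classes were joined to anchors with no promoter, and in Ishikawa the difference was smaller with such partners. The median span, measured between anchor centres, was 47.1 kb for lncRNA promoter loops and 42.8 kb for other loops over coding promoters in Ishikawa, a difference of 4.29 kb (2.90 to 5.67). In LNCaP the medians were 135 and 120 kb, a difference of 14.6 kb (10.3 to 18.8). In T-47D they were 93.4 and 89.5 kb, and the interval of the difference held 0 (3.94 kb, -0.93 to 8.81). Loops between an lncRNA and a coding promoter, with medians of 62.1, 110 and 156 kb in Ishikawa, T-47D and LNCaP, count in the lncRNA class alone. Among loops to anchors with no promoter the medians for lncRNA and coding promoters were 44.8 and 43.2 kb in Ishikawa, a difference of 1.53 kb whose interval held 0 (-0.052 to 3.12). They were 77.8 and 81.5 kb in T-47D (-3.67 kb, -10.1 to 2.75) and 123 and 113 kb in LNCaP (10.3 kb, 5.43 to 15.2). The lncRNA loops were the longer on 18 of 22 chromosomes in Ishikawa, 15 of 24 in LNCaP and 11 of 22 in T-47D, counting chromosomes with 20 lncRNA promoter loops or more. In LNCaP the medians were 214 against 134 kb on chromosome 3, 194 against 128 kb on chromosome 21 and 171 against 128 kb on chromosome 8. On chromosome 1, with 1185 lncRNA promoter loops, they were 114 against 125 kb. Loops of the same anchor count separately, and the part of anchors with many loops was not tested. Loops with no promoter at either end were shorter, with medians of 32.9, 67.5 and 95.8 kb for Ishikawa, T-47D and LNCaP. Spans of 500 kb or more were 12.7% of lncRNA promoter loops and 9.99% of the other coding promoter loops in LNCaP, 2.75% and 1.83% in Ishikawa, and 6.87% and 6.83% in T-47D. With 1 start site per gene the T-47D difference turned to -0.94 kb and the LNCaP difference was 6.03 kb. With 10 read pairs or more the differences were 1.62 kb in Ishikawa, 9.35 kb for T-47D and 21.3 kb for LNCaP, and Ishikawa loops in 2 parts or more gave 1.27 kb.

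**Figure D1:**
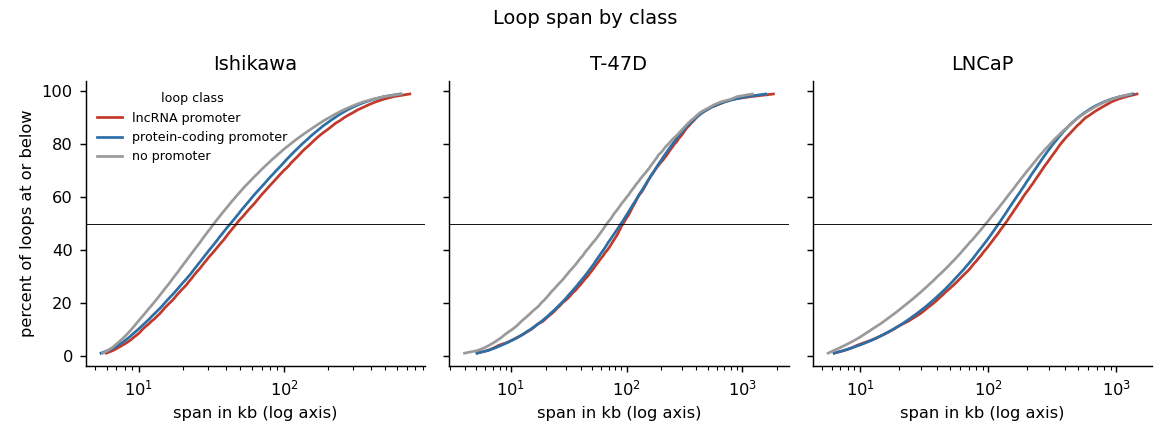
Cumulative distribution of loop span (x axis, kb, log scale) as the percent of loops at or below that span (y axis) in the 3 lists, for lncRNA promoter loops, other loops over protein-coding promoters and loops with no promoter. The lncRNA curve lies to the right of the coding curve at the median line in LNCaP (135 against 120 kb) and in Ishikawa (47.1 against 42.8 kb), and the 2 curves nearly overlie each other in T-47D.

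Support per loop was similar for lncRNA and coding promoters. The median was 4 read pairs for both classes in the Ishikawa list and 5 in the other lists, and the means were 7.05 against 6.94, 8.85 against 7.98 and 14.5 against 12.5. Loops at the list minimum of 3 read pairs made up 42.9%, 29.3% and 25.6% of the lncRNA promoter loops. The median lncRNA anchor had 3, 3 and 5 partner anchors in Ishikawa, T-47D and LNCaP, against 3, 4 and 7 for coding anchors. Read pairs were concentrated on few anchors in LNCaP, where the 17 anchors of the top 1% held 28.2% of the read pairs of lncRNA promoter loops. The matching 39 anchors in Ishikawa held 11.8% and the 10 in T-47D held 14.9%. The LNCaP value rests in part on the anchor of ENSG00000288104, which alone held 7.28%.

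The other end of an lncRNA promoter loop was a protein-coding promoter in 18.8% (18.2 to 19.4) of loops in Ishikawa cells, 51.9% (50.4 to 53.4) in T-47D cells and 37.0% (36.2 to 37.9) in LNCaP cells. For loops from coding promoters the same share was 20.4%, 48.0% and 33.6%. Per loop, the lncRNA share was thus the lower in Ishikawa and the higher in T-47D and LNCaP. Each loop counts once here, although a loop between 2 coding promoters has 2 ends joined to a coding promoter. Counted per end, the share for coding promoters would be higher, so this order need not hold for ends. The order per loop also depended on support. Among loops with 10 read pairs or more, the share was 20.2%, 43.0% and 36.6% for lncRNA promoter loops. For loops from coding promoters it was 24.9%, 49.8% and 37.0%, so the lncRNA share was the lower in all 3 lists. Thinning LNCaP to the read pairs of T-47D gave 36.6% and 36.9%. With 1 start site per gene the Ishikawa share for lncRNA promoter loops was 11.0%. Loops between 2 lncRNA anchors were 779 (5.02%), 216 (5.11%) and 561 (4.43%), with a median of 6, 7 and 8 read pairs. These were better supported at the median than loops from lncRNA promoters to anchors with no promoter, at 4, 5 and 5. They were also shorter, with median spans of 41.0, 62.9 and 104 kb against 44.8, 77.8 and 123 kb. The part of span in the support was not tested.

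**Figure D2:**
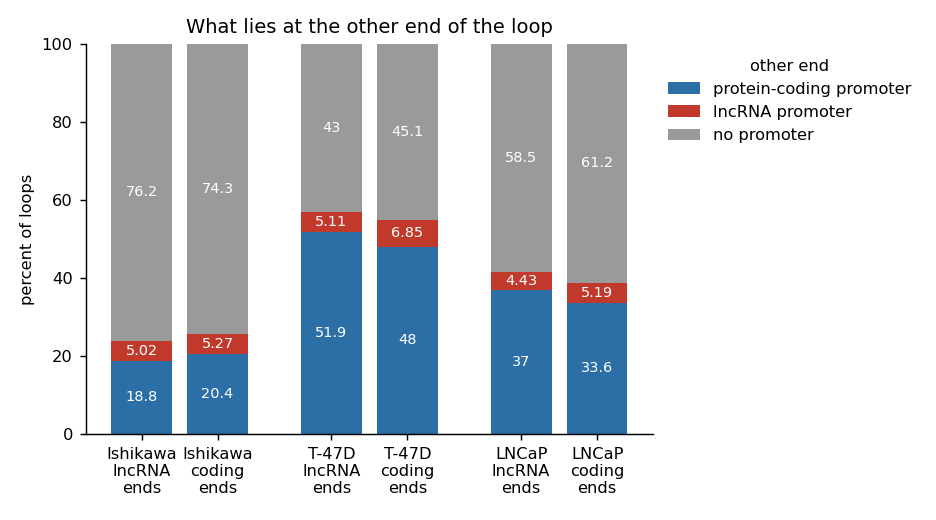
Percent of loops (y axis, 0 to 100) whose other end held a protein-coding promoter, an lncRNA promoter or no promoter, for loops from lncRNA promoters and loops from coding promoters in each list. Coding promoters are at 18.8% of lncRNA promoter loops in Ishikawa cells, 51.9% in T-47D cells and 37.0% in LNCaP cells, and lncRNA promoters at about 5% or less.

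Of the anchors without a promoter that an lncRNA promoter was joined to, 41.2% of 9807 in Ishikawa, 74.5% of 1450 in T-47D and 77.6% of 5418 in LNCaP were also joined to a protein-coding promoter. Over all anchors with no promoter this share was 33.7%, 78.0% and 72.4%, so the partners of lncRNA promoters lay above it in Ishikawa and LNCaP and below it in T-47D. The 2 shares are not on the same footing, since a partner of an lncRNA promoter needs a second loop to count. Of all anchors with no promoter, 27.3%, 34.0% and 20.3% had 1 partner, and the part of partner number was not tested. At least 1 coding promoter was a direct partner of 38.5% of lncRNA anchors in Ishikawa cells, 82.2% in T-47D cells and 79.2% in LNCaP cells. Among those, the nearest coding gene was one of the partners in 67.6%, 60.3% and 63.0%. The other anchors were joined to coding promoters farther away and not to the nearest.

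The nuclear lncRNAs MALAT1 and NEAT1, neighbours on chromosome 11, had loops in every list. MALAT1, which lies in nuclear speckles, had 126 read pairs with 12 partner anchors in Ishikawa, 766 with 29 in T-47D and 3053 with 52 in LNCaP. As RPM, the read pairs of a gene for each 1000000 read pairs of the list, this was 121, 2181 and 1691, so T-47D and LNCaP lay well above Ishikawa. NEAT1, the scaffold of paraspeckles, had 93, 678 and 2651 read pairs, or 89.4, 1930 and 1468 RPM. The 2 genes were joined to each other in each list, by 22 read pairs over 2 loops in Ishikawa cells, 91 in T-47D cells and 1300 in LNCaP cells. These counts are not scaled for depth and come from anchors of unlike width. In T-47D, NEAT1 held 307 read pairs with 6 lncRNA anchors, of which the MALAT1 anchor is 1. In LNCaP the loop between the 2 genes, from chr11:65182794-65213393 to chr11:65252117-65279149, was the strongest of MALAT1, and lncRNA anchors, NEAT1 included, held 2281 of the 3053 read pairs of MALAT1. The 42 loops of MALAT1 to coding promoters in LNCaP held 728 read pairs, of which the strongest reached SLC25A45 with 157, LTBP3 with 74 and FRMD8 with 55. In T-47D, 18 of its 29 partners were coding anchors but they held 122 of 766 read pairs, and 6 lncRNA anchors held 596. The MALAT1 anchors are not alike. That of LNCaP held 6 lncRNAs, TALAM1, the antisense transcript of MALAT1, among them, that of Ishikawa (chr11:65252816-65269822) held 5, and that of T-47D (chr11:65263638-65268181) held only MALAT1 and ENSG00000270117. Within the interval of the LNCaP anchor, T-47D had 3 lncRNA anchors whose loops held 1491 read pairs, or 4245 RPM, against 1691 RPM in LNCaP and 121 RPM in Ishikawa.

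**Figure D3:**
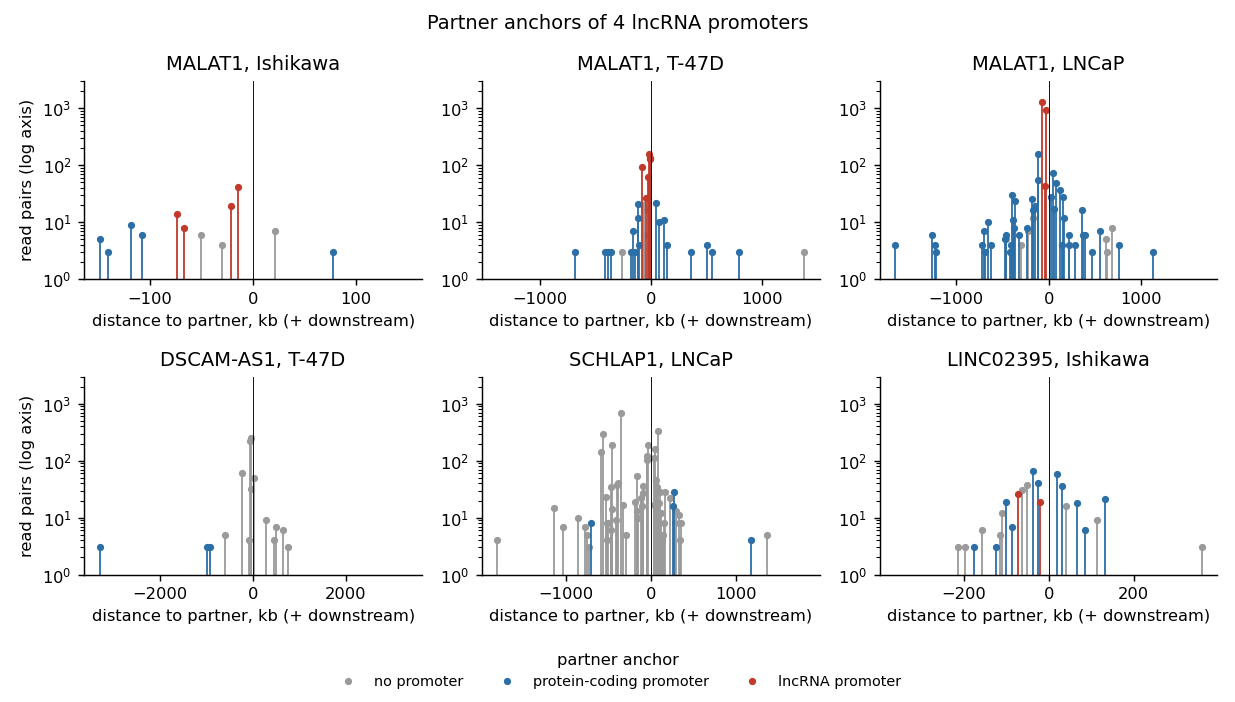
Read pairs (y axis, log scale) of each partner anchor of MALAT1 in the 3 lists, DSCAM-AS1 in T-47D, SCHLAP1 in LNCaP and LINC02395 in Ishikawa against the signed distance between anchor centres in kb (x axis, positive downstream), coloured by what the partner anchor holds. MALAT1 reaches its highest values at nearby lncRNA anchors, up to 1300 read pairs in LNCaP, whereas partners of DSCAM-AS1 and SCHLAP1 are mostly anchors with no promoter.

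Of the lncRNAs tied by name or literature to prostate cancer or the androgen receptor, 15 of 16 listed genes were annotated as lncRNA, and 9 had loops of their own in LNCaP, 8 in Ishikawa and 2 in T-47D. Their summed levels in RPM were 6871 in LNCaP, 351 in Ishikawa and 268 in T-47D. PCAT1 had 35 read pairs in Ishikawa and 4700 with 76 partners in LNCaP, and in T-47D its start site lay in an anchor with a coding promoter. SCHLAP1 had no loop in Ishikawa or T-47D and 3118 read pairs with 58 partners in LNCaP, an anchor it shared with ENSG00000225258. ARLNC1, an androgen receptor regulated transcript, had 3, 11 and 2613 read pairs. DRAIC had 158, 83 and 1265, so it was found in all 3 lists with the highest level in LNCaP, at 701 RPM against 152 in Ishikawa and 236 in T-47D. PCA3, which is measured in urine as a marker of prostate cancer, had 14, 0 and 314. PCGEM1 had 0, 0 and 201 and POTEF-AS1 0, 0 and 157. PCAT14 at 45, 0 and 25, PCAT19 at 89, 0 and 11 and LINC00844 at 15, 0 and 0 were the listed members with more read pairs in Ishikawa than in LNCaP, as was PRNCR1 at 6, 0 and 0.

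The partners of these promoters were of different kinds. SCHLAP1 was joined in LNCaP to 54 anchors with no promoter that held 3062 of its 3118 read pairs, the strongest 346 kb upstream with 693 read pairs, and to 4 coding anchors with 56. ARLNC1 had 18 loops to coding anchors that held 1388 read pairs, more than the 695 in 45 loops to anchors with no promoter, and its strongest loop reached the promoter of CMC2 with 503. A second ARLNC1 anchor, chr16:80868157-80876340, was joined to the first, chr16:80898614-80915430, by 444 read pairs. The strongest PCA3 loop in LNCaP, with 135 read pairs, ended inside PRUNE2, the gene that PCA3 lies within. The strongest DRAIC loop to a coding promoter in LNCaP reached TLE3 at 503 kb with 78 read pairs.

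In the region around MYC on chromosome 8, PVT1 had 501 read pairs with 22 partners in Ishikawa, 283 with 18 in T-47D and 2620 with 64 in LNCaP, over 7, 4 and 6 anchors of its own. CASC19 had 32, 0 and 2404, CASC8 0, 0 and 144 and CCAT2 0, 0 and 67. Of the 7 listed genes of the region that were annotated as lncRNA, 4 had loops in Ishikawa cells, 2 in T-47D cells and 5 in LNCaP cells. PCAT1 was joined to the MYC promoter in LNCaP by a loop of 323 read pairs, and PVT1 by loops of 118 and 96. Copy number of this region in LNCaP was not measured, and its part in these values was not tested.

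The lncRNAs tied to breast cancer or estrogen had their highest summed level in T-47D, at 2864 RPM, against 373 in Ishikawa and 117 in LNCaP. Of 11 annotated genes, 5 had a loop of their own in T-47D cells, 4 in Ishikawa cells and 2 in LNCaP cells, and most of the T-47D sum came from 2 genes. DSCAM-AS1, an estrogen receptor regulated transcript of luminal breast cancer, had 657 read pairs with 15 partners in T-47D, 55 with 6 in Ishikawa and none in LNCaP. LINC00511 had 301, 319 and 187 read pairs in T-47D, Ishikawa and LNCaP, which is 857, 307 and 104 RPM. BCAR4 had 28, 11 and 0, LINC01016 10, 3 and 0, and AGAP2-AS1 10, 0 and 0 in the same order. ELOVL2-AS1 went the other way, with 24 read pairs in LNCaP and no looped anchor elsewhere. GATA3-AS1, HOTAIR and TTC39A-AS1 lay only in anchors with a coding promoter in T-47D, so they are at 0 there by definition. The same held for MAPT-AS1 and TTC39A-AS1 in the LNCaP list. The DSCAM-AS1 anchor, chr21:41751855-41760302, lies within DSCAM on the plus strand, and its loops to chr21:41709472-41715893 with 246 read pairs and to chr21:41691810-41700358 with 221 were among the 3 strongest lncRNA promoter loops of T-47D. Both of these partners lie in DSCAM and hold no promoter. In Ishikawa the strongest DSCAM-AS1 loop, with 20 read pairs, went downstream, and anchors overlapping both T-47D partners were joined to it by 8 and 6 read pairs.

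**Figure D4:**
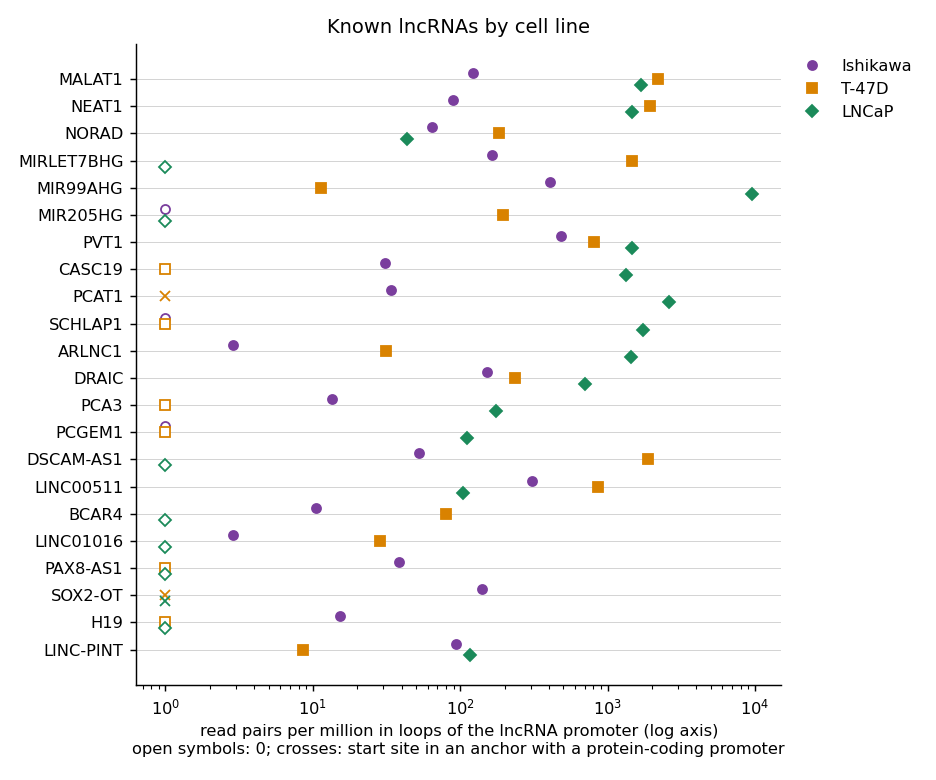
RPM in loops of the promoter (x axis, log scale) for 22 known lncRNAs (y axis) in the 3 lists, with open symbols at the left edge for genes at 0 and crosses for genes whose start site lay in an anchor with a protein-coding promoter. SCHLAP1, ARLNC1 and PCAT1 are highest in LNCaP and DSCAM-AS1 in T-47D, whereas PVT1, DRAIC and LINC00511 have values in every list.

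Of 25 host genes of microRNAs and small nucleolar RNAs, all annotated, 14 had loops of their own in Ishikawa cells, 11 in T-47D cells and 12 in LNCaP cells, and 6 in each list lay only in anchors with a coding promoter. MIR99AHG, the host of miR-99a, let-7c and miR-125b-2, had 423 read pairs in Ishikawa cells, 4 in T-47D cells and 17188 in LNCaP cells, the highest of any lncRNA in that list. The LNCaP value came from 15 anchors along a gene of many start sites (chr21:17300616-18018683), and Ishikawa had 17 anchors with far fewer read pairs. Loops between anchors of MIR99AHG itself or from them to anchors with no promoter made up nearly all of it, since 18 loops to coding anchors held 111 read pairs. MIRLET7BHG, the host of let-7a-3 and let-7b, ran the other way with 170, 516 and 0. MIR205HG had 68 read pairs in T-47D and none elsewhere, and MIR100HG had 55 in Ishikawa and none elsewhere. Among hosts of small nucleolar RNAs, SNHG15 had 23, 20 and 69 read pairs, DANCR 24, 14 and 59, SNHG12 6, 17 and 104 and SNHG6 11, 69 and 48, so these were found in every list. GAS5, SNHG1 and SNHG3 lay in anchors with a coding promoter in every list and have no value here.

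Of the 13 listed Müllerian and HOX lncRNAs, 2 had a loop of their own in Ishikawa and none in the other lists, while 4, 2 and 3 lay only in anchors with a coding promoter in Ishikawa, T-47D and LNCaP and are at 0 by definition. HOXC-AS3, described below, is not on this list. SOX2-OT had 145 read pairs in Ishikawa and lay in a coding anchor in the other lists, and PAX8-AS1 had 40 read pairs in Ishikawa and none elsewhere, with its strongest loops to anchors over PAX8 promoters (16 and 11 read pairs). The other 11 of 13 had none in any list. Of the remaining nuclear and imprinted genes, NORAD had 67, 64 and 79 read pairs, H19 16, 0 and 0 and MIAT 11, 4 and 0, and MEG3 had no looped anchor. FTX had 0, 0 and 81, JPX 0, 0 and 19 and KCNQ1OT1 0, 0 and 3. Among other cancer-associated lncRNAs, LINC-PINT had 97, 3 and 209 read pairs, MIR9-1HG 73, 29 and 162, CASC15 51, 0 and 95 and LUCAT1 35, 0 and 8. Over all 91 annotated genes of the list, 42 had a loop of their own in Ishikawa cells, 26 in T-47D cells and 39 in LNCaP cells, while 14, 16 and 20 lay only in anchors with a coding promoter.

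In Ishikawa the lncRNA with the most read pairs was ENSG00000279151 on chromosome 1, with 1241 in Ishikawa cells, 48 in T-47D cells and 0 in LNCaP cells. CROCCP2, a transcribed pseudogene nearby, had 811, 43 and 52. The 3 strongest lncRNA promoter loops of Ishikawa joined these 2 anchors to each other (237 read pairs, chr1:16948970-16972621 to chr1:17024241-17056372) and to the promoter of NBPF1 (192 and 158). NBPF1 and CROCCP2 belong to duplicated gene families. Of 23596 distinct 50-base words in the CROCCP2 anchor 11 also occurred in the ENSG00000279151 anchor, and the NBPF1 anchor shared none with either. Both anchors also had loops across most of the chromosome, to an anchor 218 Mb away over ENSG00000289377, with 77 read pairs from ENSG00000279151 and 30 from CROCCP2. ENSG00000279151 had 3 more loops over 1 Mb, with 10, 7 and 3 read pairs. It shared 54 words with the partner at ESPN and HES2 (7 read pairs) and 2 with the one of 3 read pairs, and no exact 50-base word was shared in the loops over 218 Mb. Copies elsewhere in the genome were not searched, and the part of duplicated sequence in these counts was not tested. MUC20-OT1 followed with 809, 69 and 119 read pairs and 40 partners in Ishikawa, the most of any lncRNA there, with its strongest loop to a coding promoter at MUC4 (72 read pairs). LINC00963 had 518, 515 and 947 read pairs with 31, 27 and 40 partners. The list of most partners went on with ENSG00000256969 (35), LINC00887 (34), MSRB3-AS1 (34) and MIR99AHG (33). MUC20-OT1 and LINC00887 lie on chromosome 3, and ENSG00000256969 and MSRB3-AS1 on chromosome 12. In Ishikawa, chromosome 12 held 2119 lncRNA promoter loops and 7129 other loops over coding promoters, and chromosome 3 held 1396 and 4378. Chromosome 1 held 1038 and 4444. The part of dense chromosome segments and of copy number in these values was not tested.

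In T-47D the lncRNA with the most read pairs was ENSG00000289883, at chr11:65243986-65245043 near MALAT1, with 65 in Ishikawa cells, 775 in T-47D cells and 1683 in LNCaP cells. HOXC-AS3, an antisense transcript of the HOXC cluster of developmental transcription factors, had 742 read pairs with 22 partners in T-47D and no looped anchor in the other lists. Coding anchors held 641 of these read pairs, and the strongest loops reached the promoters of HOXC11 (191), HOXC6 (183), HOXC9 with HOXC6 (95) and HOXC13 (63). ENSG00000285637 had 0, 602 and 7 read pairs and 29 partners in T-47D. ENSG00000287946 had 50, 660 and 0, and LNCATV 4, 597 and 226. The strongest lncRNA promoter loop of T-47D, with 252 read pairs, joined 2 anchors of MIRLET7BHG, chr22:46446625-46455386 and chr22:46459511-46473731.

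In LNCaP a single anchor stood above all others. The anchor of ENSG00000288104, chr3:175189402-175218577 inside NAALADL2, had 13351 read pairs with 123 partners, and the gene had no looped anchor in Ishikawa or T-47D. Its strongest loop, to chr3:175251619-175282627, held 2184 read pairs, and 116 of its partners held no promoter. The next loops were at MIR99AHG on chromosome 21 with 2104 and 1989 read pairs. ENSG00000260217, also on chromosome 3, had 57, 7 and 2130 read pairs in Ishikawa, T-47D and LNCaP with 69 partners in LNCaP, and LINC00578 had 105, 139 and 1606 with 66. Copy number was not measured in these lists, and its part in the LNCaP values was not tested.

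Genes were compared between lists on RPM, a gene being called at a 4-fold difference or more where either list held 10 read pairs or more, with a floor of 3 read pairs. There is no test, since each line has 1 list, and genes in an anchor with a coding promoter in either list were left out. Between T-47D and LNCaP, 376 of 1628 lncRNA genes (23.1%) were higher in T-47D and 365 (22.4%) in LNCaP. Over all lncRNA and protein-coding genes tested, 19.6% were called higher in T-47D and 14.6% in LNCaP, so the lncRNA genes lay above the background in both directions. Between T-47D and Ishikawa, 499 of 2893 (17.2%) were higher in T-47D against a background of 37.2%, and 757 (26.2%) higher in Ishikawa against 17.2%. Between LNCaP and Ishikawa, 791 of 3412 (23.2%) were higher in LNCaP against 37.1%, and 2114 (62.0%) higher in Ishikawa against 32.7%. Most calls were made against a list where the gene had no read pairs, 222 of 376, 332 of 365, 294 of 499, 736 of 757, 596 of 791 and 2006 of 2114 in the order given. For these a fold is a lower bound on the ratio of counts as defined here, not of contacts in the region. A 0 means that no start site of the gene lay in a looped anchor, and neighbouring anchors can still hold read pairs. TALAM1 had 3053 read pairs in LNCaP and 0 in T-47D, where lncRNA anchors within the same LNCaP anchor held 1491. The size of a bound also depends on the depth of the list at 0. A gene with 10 read pairs in Ishikawa and none elsewhere passes 4-fold against the LNCaP list but not against the T-47D list, which is shallower, so the shares of 62.0% and 26.2% are not on the same footing. Scaled to read pairs over any promoter, the 499 and 757 genes became 457 and 1382.

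HOXC-AS3 had the largest fold of T-47D over both other lists, in read pairs counted by this definition. It was at least 1271-fold higher in T-47D than in LNCaP and at least 733-fold higher than in Ishikawa. DSCAM-AS1 was at least 1126-fold and ENSG00000287946 at least 1131-fold higher in T-47D than in LNCaP. Against Ishikawa, ENSG00000285637 was at least 594-fold and LNCATV 442-fold higher in T-47D. ENSG00000288104 was at least 866-fold higher in LNCaP than in T-47D and at least 2565-fold higher than in Ishikawa. MIR99AHG was 836-fold higher in LNCaP than in T-47D, where it had 4 read pairs. SCHLAP1 was at least 202-fold higher than in T-47D and at least 599-fold higher than in Ishikawa, with the same values for ENSG00000225258 in the same anchor. LINC02395 and MSRB3-AS1, at 448 and 443 read pairs in Ishikawa cells and 0 elsewhere, were at least 50.4-fold and 49.9-fold higher in Ishikawa than in T-47D and at least 259-fold and 256-fold higher than in LNCaP. LINC01983 was at least 57.3-fold higher in Ishikawa than in T-47D, and ENSG00000279151 at least 718-fold higher in Ishikawa than in LNCaP. LINC02395 and MSRB3-AS1 lie on chromosome 12 and LINC01983 on chromosome 3. The part of dense Ishikawa segments and of copy number in these folds was not tested. The LINC02395 anchor lies between water channel genes and FAIM2, and its strongest loops reached FAIM2 (67 read pairs), AQP2 (58) and AQP5 (36).

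Loops were compared one by one, a loop being found in another list when both anchors overlapped those of 1 loop there. T-47D and LNCaP shared the most lncRNA promoter loops. They also share a library protocol, which cannot be told apart from the cell line. Of T-47D lncRNA promoter loops, 36.4% (35.0 to 37.9) had a match in LNCaP and 11.2% (10.3 to 12.2) had one in Ishikawa. Of LNCaP loops, 11.3% were found in T-47D and 7.11% in Ishikawa cells, and of Ishikawa loops 2.74% in T-47D cells and 5.46% in LNCaP cells. Other loops over coding promoters were found more often between T-47D and LNCaP, 45.8% (45.3 to 46.4) of T-47D loops and 15.2% of LNCaP loops, and among Ishikawa loops, where 5.24% were found in T-47D and 10.8% in LNCaP. Of loops found in Ishikawa, the shares were 11.2% and 10.3% from T-47D and 7.11% and 7.33% from LNCaP for lncRNA and coding promoters, and these intervals overlapped. Over the 1537 T-47D lncRNA promoter loops found in LNCaP, Spearman's rho of read pairs was 0.41, given as a description, since the points share the spans of the loops. It was 0.16 over the 475 found in Ishikawa. A stricter overlap of 50% of both anchors left 14.6% of T-47D loops in LNCaP and 0.497% in Ishikawa, where anchors are wider.

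**Figure D5:**
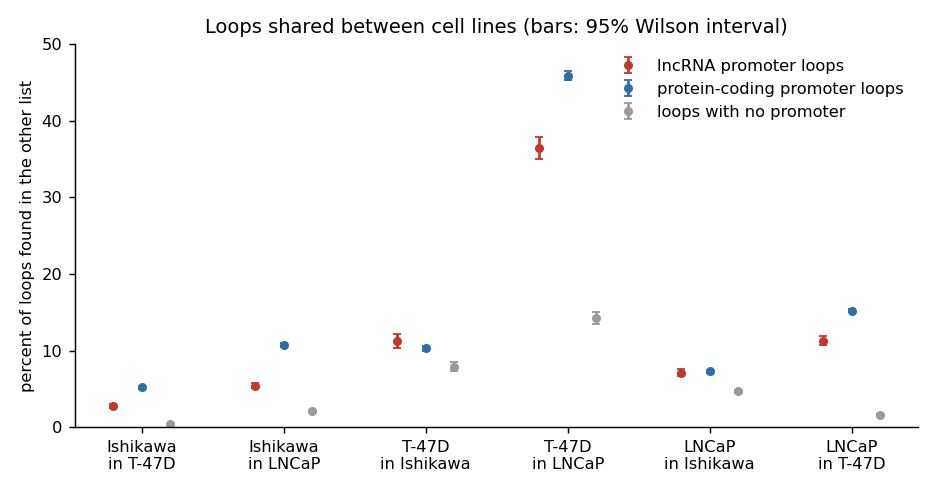
Percent of the loops of one list that were found in another (y axis) for lncRNA promoter loops, other loops over protein-coding promoters and loops with no promoter, with 95% Wilson intervals, for the 6 ordered pairs of lists (x axis). The lncRNA value lies below the coding value for T-47D in LNCaP (36.4% against 45.8%) and beside it for T-47D in Ishikawa and LNCaP in Ishikawa.

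Loops found in all 3 lists were few. Of the T-47D lncRNA promoter loops 248 (5.87%) were found in both other lists, and they belonged to 157 lncRNA genes. Genes were ranked by the RPM of these loops and their matches, summed over the 3 lists. The first were MALAT1 with ENSG00000270117 in its anchor, at 7 loops that held 354 read pairs in T-47D. LINC02736 and ENSG00000286756 followed at 6 loops with 280, and ENSG00000289883 at 4 loops with 440. All 5 lie within the cluster around MALAT1 and NEAT1, and NEAT1 itself had 4 such loops with 206. In these sums an LNCaP or Ishikawa loop counts again for each T-47D loop that it matches. The LNCaP matches of MALAT1 sum to 4598 read pairs, against 3053 in all its LNCaP loops. Those of NEAT1 sum to 4345 against 2651, and those of ENSG00000289883 to 3259 against 1683. The order is thus not that of the RPM of the genes, and the part of repeated matches in it was not tested. LINC00963 had 20 loops found in all 3 lists, with 248 read pairs. It had 2 anchors in T-47D against 1 anchor in each of the other lists. Its matches in LNCaP sum to 1364 read pairs, against 947 in all its LNCaP loops. Some LNCaP loops were thus matched more than once, and the 20 loops are not 20 separate contacts there. Neither HOXC-AS3 nor SCHLAP1 could be among the 157 genes, since each had loops in 1 list.

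The Ishikawa list is made of 4 separately sorted parts, which may be the 4 samples but are not named, so they were set side by side only to show the spread within the list. lncRNA promoter loops were 9.54% to 10.6% of the loops of a part. Their median span exceeded that of other coding promoter loops by 1.82 to 4.17 kb, in the same direction in all 4 parts. The share joined to a coding promoter was 17.7% to 23.7%, below that of loops from coding promoters in the same part in each case. Of the lncRNA promoter loops 36.8% (36.0 to 37.6) occurred in 2 parts or more, against 37.4% of other coding promoter loops and 31.4% of loops with no promoter, and 841 occurred in all 4 parts.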

How the data were processed

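H3K27ac HiChIP was analysed in 7 samples of 3 cell lines. Per the submitters' notes and methods, the authors aligned reads to hg19 with HiC-Pro, called loops with hichipper, removed loops with under 3 reads and those past their false discovery rate limit, and pooled samples, so the deposited values are counts of read pairs per loop in 1 list per line, not scaled for depth. Ishikawa rows were summed over parts. lncRNA and protein-coding start sites (47667 and 146567) came from GENCODE lifted to GRCh37, and window sequences from GRCh37. All anchors over lncRNA promoters began and ended at GATC in that genome. Coordinates count from 1.

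Shares carry 95% Wilson intervals, medians order-statistic intervals, and fold calls a floor of 3 read pairs. Alternatives were minima of 5 and 10 read pairs, a 2 kb window, 1 start site per gene, basic transcripts, spans of 20 kb to 1 Mb, thinning to the shallowest list, other overlaps and other scalings. Genes are named as the 5 with the most read pairs or partners per list, the 3 strongest loops, the 3 largest folds per direction, the 5 leading genes with loops in all lists, and a list of 99 known lncRNAs, of which 91 are annotated as lncRNA. Genes named as further examples were chosen after their values were seen. The loop class, the gene lists and the alternatives were chosen with earlier results of these data known. Procedures were tested on simulated data. Python 3.11.15, numpy 2.4.6 and pandas 2.3.3 were used.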

Additional observations from a re-analysis of the deposited data

Results flagged for a closer look

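Rows outside the definition of a loop also carried signal at lncRNA promoters. In Ishikawa, 30709 read pairs joined an lncRNA promoter anchor to itself, over 2121 anchors, and in T-47D 15805 did so over 663 anchors. The LNCaP list held no such rows, so no comparison with LNCaP was made. In T-47D, 28 read pairs in 6 rows joined an lncRNA promoter anchor to an anchor on another chromosome, and the other lists held no such rows. These read pairs enter no value of the report.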

How the results depend on the processing

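Of 108 recomputed values, 49 stayed within their interval or, for counts of genes, near the value reported, 57 moved by more and 2 reversed. Both reversed values were of the T-47D span difference, -0.94 kb with 1 start site per gene and -3.67 kb for partners with no promoter. The latter setting was chosen after seeing the data. The cause was not tested in any case. No paired analysis was possible because each cell line had 1 pooled list.

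The share of lncRNA promoter loops was, for Ishikawa, 10.2% at 5 read pairs or more, 11.2% at 10 or more, 10.5% with a 2 kb window, 9.18% with 1 start site per gene, 9.72% with basic transcripts, 10.3% for spans of 20 kb to 1 Mb, 10.4% thinned and 10.3% for loops in 2 parts or more. For T-47D it was 10.4% at 10 or more, 10.7% at 2 kb, 12.3% with 1 start site and 10.4% with basic transcripts. For LNCaP it was 8.65% and 9.01% at 5 and 10 or more, 9.16% at 2 kb, 9.33% with 1 start site, 8.66% with basic transcripts and 9.06% thinned.

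The span difference was, for Ishikawa, 1.36 kb at 5 read pairs or more, 1.62 at 10 or more, 1.68 thinned, 1.27 for loops in 2 parts or more and 1.53 for partners with no promoter. For T-47D it was 9.04 and 9.35 at 5 and 10 or more. For LNCaP it was 21.3 at 10 or more, 6.03 with 1 start site, 7.29 with basic transcripts and 21.4 thinned.

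The share joined to a coding promoter was, for Ishikawa, 19.5% and 20.2% at 5 and 10 or more, 20.6% at 2 kb, 11.0% with 1 start site, 12.9% with basic transcripts, 20.3% for spans of 20 kb to 1 Mb, 19.6% thinned and 19.5% for loops in 2 parts or more. For T-47D it was 49.5% and 43.0% at 5 and 10 or more, 44.1% with 1 start site, 49.8% with basic transcripts and 54.2% for the span window. For LNCaP it was 38.0% at 2 kb, 30.5% with 1 start site, 33.6% with basic transcripts and 38.5% for the span window.

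T-47D loops found in LNCaP were 41.3% with 1 start site, 38.3% with basic transcripts and 14.6% at an overlap of 50%. T-47D loops found in Ishikawa were 9.63% at 10 or more and 0.497% at that overlap. LNCaP loops found in Ishikawa were 5.57% and 4.84% at 5 and 10 or more, 5.76% for the span window and 0.711% at that overlap. Genes higher in Ishikawa than in T-47D were 1382 scaled to read pairs over any promoter, and those higher in Ishikawa than in LNCaP were 1396 at 20 read pairs or more. Loops at 3 read pairs, the minimum of each list, limit every value that counts loops.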
